A study of Rattus norvegicus with 48 samples.

Results

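Arrdc2 (ENSRNOG00000019009) encodes arrestin domain containing 2, a member of the alpha-arrestin family, and is described here in the plantaris and soleus of rats with a cast hindlimb. It is 1 of 31998 genes in the deposited count matrix. The gene was chosen by its rise in the soleus of cast HRT rats, so every value of Arrdc2 that uses an HRT soleus library is given as a description, with no test. Its plantaris values, and the soleus values of LRT rats, were not used for that choice. The HRT plantaris libraries come from the same rats as the HRT soleus libraries, so tests on them are not independent of the choice. The study asked how the early response to disuse differs between rats that adapt poorly and rats that adapt well to endurance training.

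The animals were 24 female rats, 14 months old, from generation 19 of lines bred from heterogeneous stock for a low response (LRT, 12 rats) or a high response (HRT, 12 rats) to treadmill training. All had completed the training program as young adults, according to the methods of the study. In each line 6 rats had 1 hindlimb cast with the foot in plantar flexion for 3 d (hindlimb immobilization, HI) and 6 other rats carried no cast (CTRL). Both muscles were taken under anaesthesia in all groups. The methods name a puromycin injection shortly before collection, to measure protein synthesis, which the study reports for cast and CTRL rats alike. Plantaris and soleus of every rat were sequenced, which gave 48 libraries in 8 groups of 6. The rats of the CTRL groups were separate animals and not the uncast limb of the HI rats. The lines were selected from heterogeneous stock, so a difference between LRT and HRT cannot be assigned to a single allele.

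Alpha-arrestins carry arrestin domains and, in most members, a tail with short proline and tyrosine motifs that bind ubiquitin ligases of the Nedd4 family. In this way they act as adaptors that bring membrane proteins, such as transporters and receptors, to ubiquitination and endocytosis. The mammalian family holds Arrdc1 to Arrdc5 and Txnip, the latter a binding partner of thioredoxin that limits glucose uptake. In skeletal muscle Arrdc2 is known as a transcript that responds to loading and to glucocorticoids. The plantaris is a mostly fast and the soleus a mostly slow postural muscle.

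The 250 bases before the annotated start site are shown for Arrdc2 and for Arrdc3, the other alpha-arrestin with a paired identifier, because both transcripts rose in the plantaris of cast HRT rats. They were taken from RefSeq on the build GRCr8, where both genes lie on the plus strand, Arrdc2 at chr16:18635633-18635882 and Arrdc3 at chr2:12872952-12873201. Capitals mark the letters CCAAT on either strand (ATTGG on the strand shown) and, at the end of Arrdc3, GGGCGG on the other strand.
Arrdc2: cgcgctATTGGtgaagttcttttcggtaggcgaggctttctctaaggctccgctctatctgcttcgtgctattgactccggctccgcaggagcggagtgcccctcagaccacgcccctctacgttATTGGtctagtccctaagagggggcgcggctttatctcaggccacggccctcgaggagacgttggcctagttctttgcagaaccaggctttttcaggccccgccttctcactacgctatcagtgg
Arrdc3: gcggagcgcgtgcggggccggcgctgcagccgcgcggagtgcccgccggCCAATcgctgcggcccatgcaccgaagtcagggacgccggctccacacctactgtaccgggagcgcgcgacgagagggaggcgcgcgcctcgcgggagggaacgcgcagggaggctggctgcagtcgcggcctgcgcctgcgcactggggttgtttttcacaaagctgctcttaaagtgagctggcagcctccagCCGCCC
The GC content was 58.0% in the Arrdc2 window and 72.4% in the Arrdc3 window.

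The letters CCAAT, the core of the NF-Y box, occurred at 2 positions in the Arrdc2 window and at 1 in the Arrdc3 window, and 34% of the 33469 promoters in the table held them. This motif was added after the sequences had been read. The letters GTAAACA (FoxO, in 3.21% of all promoters), AGAACA (the core letters of glucocorticoid receptor sites, 17.5%), CACGTG (E-box, 5.59%), TGANTCA (AP-1, 6.34%) and TATAAA (a core promoter element, 12.9%) were in neither window. GGGCGG (GC box, 30.5% of all promoters) was in the Arrdc3 window alone, 6 bases before the start. All motifs were searched on both strands, and a match is a description of the letters only. In the same annotation the neighbours of Arrdc2 are Kcnn1 and LOC134482468 before it and Il12rb1 and Mast3 after it, and 0 genes overlap it.

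Library totals lay between 26.8 M and 36.4 M estimated counts (M, mega; median 30.4 M) and RNA integrity numbers (RIN) between 7.8 and 8.6. Of all genes 16960 passed the filter on low counts and were tested with edgeR's quasi-likelihood test, with RIN as a covariate and Benjamini-Hochberg adjustment over all of them. Casting raised 15.1% and lowered 13.6% of them in LRT plantaris, 5.11% and 5.85% in HRT plantaris, and 7.36% and 6.58% in LRT soleus (adjusted p under 0.05). In HRT soleus, the comparison that chose the gene, 7.95% passed as higher and 8.23% as lower, which is given as background only. These splits depend on the scaling. With library totals alone in place of the trimmed mean of M values (TMM), the median of all genes moved up by 0.24 log2 in LRT plantaris, 0.16 in HRT plantaris, 0.14 in LRT soleus and 0.063 in HRT soleus, and the calls became 5937 up and 1073 down, 2517 and 502, 2644 and 540, and 1654 and 925. Atp2a1, the calcium pump of fast fibres, stood at 2578 ± 372 CPM in LRT CTRL plantaris against 223 ± 67.5 CPM in LRT CTRL soleus (SD, n = 6). The myosin heavy chains that define the fibre types were not analysed here.

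Arrdc2 was detected in all 48 libraries, with 36 to 4309 estimated counts. Levels are given as CPM on TMM-scaled totals (counts divided by the scaled total of the library in M), as mean ± SD of 6 rats. From low to high the groups stood at 1.84 ± 0.659 CPM in HRT CTRL soleus, 3.81 ± 1.77 in LRT CTRL soleus, 9.73 ± 3.42 in LRT HI soleus and 14.8 ± 7.61 in HRT HI soleus. The plantaris groups followed with 28.1 ± 3.27 CPM in HRT CTRL, 54.7 ± 14.5 in LRT CTRL, 73.2 ± 26.1 in LRT HI and 84.0 ± 41.3 in HRT HI. Within each muscle and line the cast group had the higher mean, and all plantaris means lay above all soleus means. Of the 7 pairs of neighbours in this order, 4 differed by less than their summed SDs, namely HRT CTRL and LRT CTRL in soleus, LRT HI and HRT HI in soleus, LRT CTRL and LRT HI in plantaris, and LRT HI and HRT HI in plantaris. Of the other 3, the ranges did not overlap between HRT CTRL and LRT CTRL plantaris alone.

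**Figure D1:**
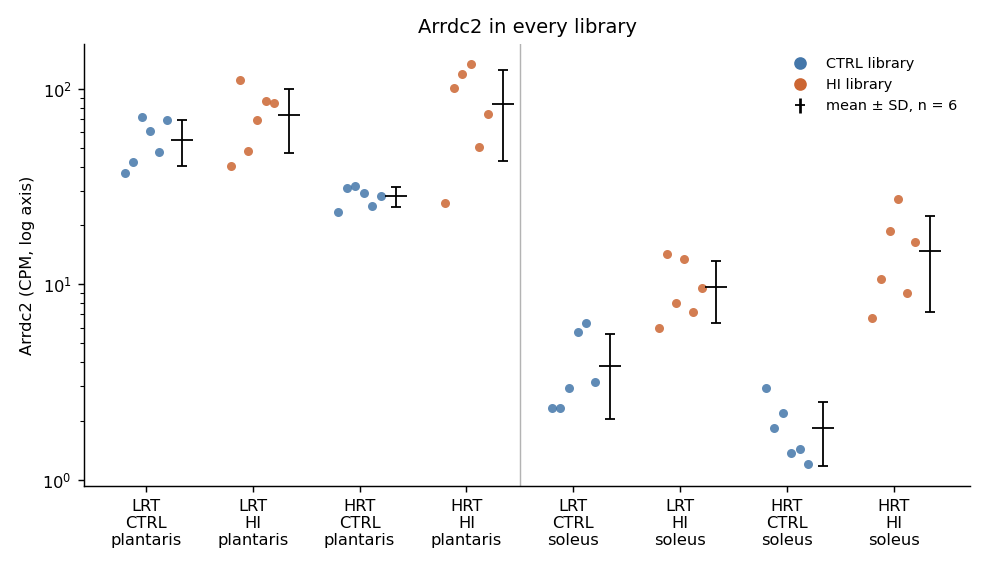
Arrdc2 in CPM (vertical log axis) in every library of the 8 groups. Blue points are CTRL and orange points HI libraries, and the black bars give mean ± SD of 6 rats. The soleus libraries run from 1.21 to 27.3 CPM and the plantaris libraries from 23.4 to 134 CPM.

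The spread between rats was narrowest without a cast in HRT plantaris, where the coefficient of variation was 11.6%. It was widest with a cast in HRT, at 49.2% in plantaris and 51.4% in soleus, where it was 35.9% without a cast. In LRT it was 26.5% without and 35.6% with a cast in plantaris, and 46.5% without and 35.1% with a cast in soleus. The spread was thus larger with the cast in both HRT muscles and in LRT plantaris but not in LRT soleus, and these differences in spread were not tested.

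Arrdc2 was far higher in plantaris than in soleus. In LRT CTRL the plantaris libraries held 37.2, 42.1, 47.6, 60.6, 69.0 and 71.8 CPM and the soleus libraries 2.32, 2.33, 2.95, 3.17, 5.71 and 6.36 CPM. The highest soleus library was thus well below the lowest plantaris library. The soleus level was lower by a log2 fold change of -3.80 (SE 0.36, adjusted p = 1.4e-11, edgeR), in a comparison in which 32.6% of all genes were called in either direction and 23.3% did not overlap. With a cast the difference in LRT was -2.80 (SE 0.37, adjusted p = 1.1e-07, edgeR; 29.8% of all genes called and 12.1% without overlap). In HRT, as a description, it was -3.91 without and -2.40 with a cast.

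Taken rat by rat, with the same number in both muscles read as the same animal, the plantaris held more Arrdc2 than the soleus in all 24 rats. The ratio of plantaris to soleus was between 7.42 and 23.8 in LRT CTRL and between 7.75 and 22.3 in HRT CTRL rats. It was between 5.16 and 11.9 in LRT HI and between 3.84 and 9.37 in HRT HI rats. The change of the muscle difference with the cast in LRT, the interaction of muscle and treatment, was 1.00 log2 (SE 0.46, 95% interval 0.07 to 1.93) and did not pass the threshold after adjustment over all genes (adjusted p = 0.23, edgeR). In that interaction 2.18% of all genes were called. The edgeR fit has no term for the rat, though both muscles came from the same rats. With the rat as a block in limma-voom, the muscle comparisons and this interaction in LRT kept their side of the threshold.

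In HRT plantaris, in the rats whose soleus chose the gene, Arrdc2 rose with the cast. The CTRL rats held 23.4, 25.2, 28.3, 29.2, 30.9 and 31.7 CPM. The HI rats held 26.1, 50.4, 74.3, 101, 119 and 134 CPM. Of the 6 HI rats 5 lay above all CTRL rats, and the remaining 1 lay within the CTRL range. The log2 fold change was 1.55 (SE 0.32, 95% interval 0.91 to 2.19, adjusted p = 0.0020, edgeR), which ranked 110 of 16960 among rises in a comparison that called 5.11% of all genes as higher. The mean difference of 1.39 log2 CPM also passed a 2-sided exact permutation test of 6 against 6 rats (p = 0.011, adjusted over 5 such comparisons p = 0.018).

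In LRT plantaris a rise was not detected beyond the spread between rats. The CTRL values given above lay between 37.2 and 71.8 CPM, and the HI rats held 40.3, 48.3, 69.5, 84.4, 86.3 and 110 CPM. Of the HI rats 3 lay above all CTRL rats, and the groups overlapped. The log2 fold change was 0.40 (SE 0.31, adjusted p = 0.36, edgeR), with a 95% interval from -0.23 to 1.02 that leaves room for no change and for a doubling. In the same comparison 15.1% of all genes rose. The exact permutation test gave a difference of 0.38 log2 CPM (p = 0.19, adjusted p = 0.24), which passed when library totals replaced TMM (0.61, adjusted p = 0.041).

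In LRT soleus Arrdc2 rose with the cast, from a low level. The HI rats held 5.97, 7.18, 7.99, 9.52, 13.4 and 14.3 CPM against 2.32 to 6.36 CPM in CTRL rats, a ratio of means of 2.56. Only the lowest HI rat overlapped the CTRL range, so that 5 of 6 lay above all CTRL rats. The log2 fold change was 1.40 (SE 0.34, 95% interval 0.71 to 2.08, adjusted p = 0.0047, edgeR) and ranked 169 among 16960 rises, where 7.36% of all genes were called as higher. By the 2-sided exact permutation test the difference was 1.38 log2 CPM (p = 0.0043, adjusted p = 0.011).

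In HRT soleus, the comparison that chose the gene, the CTRL rats held 1.21, 1.37, 1.44, 1.84, 2.20 and 2.96 CPM, or 36 to 95.3 estimated counts. The HI rats held 6.75, 9.0, 10.7, 16.4, 18.8 and 27.3 CPM. The ranges did not overlap, as was the case for 2.25% of all genes with HI above CTRL in these libraries. The fitted fold was 8.34 (log2 3.06) and ranked 12 of 16960 among rises. The highest cast HRT soleus lay above 2 of the 6 uncast HRT plantaris libraries. In bulk muscle RNA, more cells that make a transcript and more transcript in each cell cannot be told apart.

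**Figure D2:**
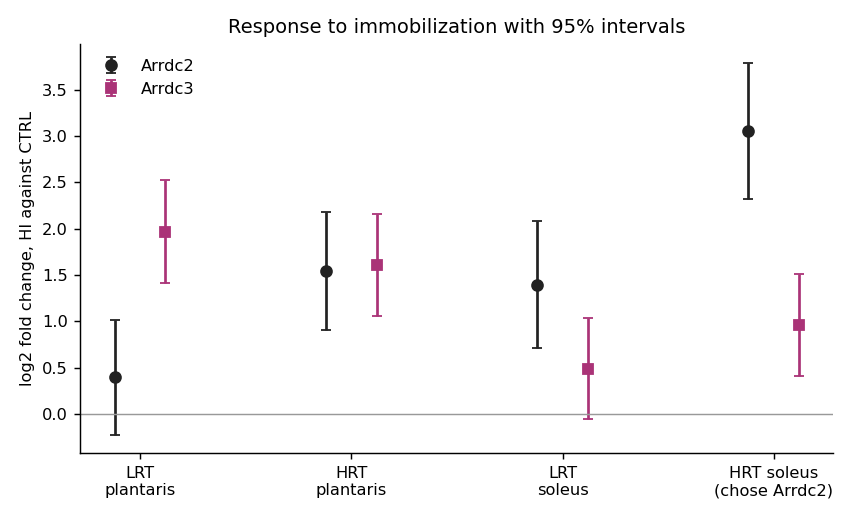
Log2 fold changes of HI against CTRL (vertical axis) with 95% intervals for Arrdc2 (black circles) and Arrdc3 (purple squares) in each muscle and line, 6 against 6 rats. Arrdc2 stands at 1.55 in HRT plantaris, 1.40 in LRT soleus and 0.40 in LRT plantaris, where its interval crosses 0, and the HRT soleus value of 3.06 is the one that chose the gene.

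Without a cast, Arrdc2 was higher in the plantaris of LRT than of HRT rats. All 6 LRT rats (37.2 to 71.8 CPM) lay above all 6 HRT rats (23.4 to 31.7 CPM), a ratio of means of 1.95, and 2.69% of all genes did not overlap in this comparison. The exact permutation test gave the smallest p that 6 against 6 rats allow (difference 0.92 log2 CPM, p = 0.0022, adjusted over 5 comparisons p = 0.011). In the fit across all genes the difference was 0.95 (SE 0.31, 95% interval 0.33 to 1.58) and did not pass after adjustment over 16960 genes (adjusted p = 0.17, edgeR; 0.525% of all genes called). With a cast the LRT and HRT values overlapped, at 40.3 to 110 CPM and 26.1 to 134 CPM. The difference there was -0.20 (95% interval -0.81 to 0.41, adjusted p = 0.77, edgeR; 2.42% of all genes called). As a description, LRT exceeded HRT by 1.06 log2 in CTRL soleus and was lower by a log2 difference of -0.60 in HI soleus.

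The response of plantaris to the cast was smaller in LRT than in HRT by a log2 difference of -1.15 (SE 0.43, 95% interval -2.03 to -0.28, unadjusted p = 0.011). This DELTA comparison did not pass after adjustment (adjusted p = 0.76, edgeR). It called 0 of 16960 genes with edgeR (0%), with 1060 genes (6.25%) at an unadjusted p under 0.05, 4 higher and 2 lower genes with DESeq2 and 1 and 1 with limma-voom, and Arrdc2 passed with neither. In these libraries the CTRL ranges of the lines did not overlap and the HI ranges did. In soleus the same difference of responses was -1.66, as a description.

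Whether a rat with more Arrdc2 than its group in one muscle also had more in the other was tested in LRT rats alone, an analysis chosen after the values had been seen. Over the 12 LRT rats the deviations from the group mean in plantaris and soleus had a Pearson r of 0.46 (permutation p = 0.13, adjusted over 2 measures p = 0.19) and a Spearman rho of 0.41 (permutation p = 0.19, adjusted p = 0.19), and a relation was thus not detected. Leaving out the 2 LRT rats farthest from the median on the plantaris axis, both cast, gave r = 0.30 (permutation p = 0.39). Within groups r was 0.67 in LRT HI (exact permutation p = 0.16, adjusted over the 2 LRT groups p = 0.32) and 0.27 in LRT CTRL (exact permutation p = 0.54, adjusted p = 0.54). The HRT rats include the soleus libraries that chose the gene, and their values are a description, with r at 0.86 in HRT HI and -0.27 in HRT CTRL. Over all 24 rats r was 0.59 and rho 0.50, and r was 0.40 without the 2 farthest rats, both cast HRT rats. The muscles of a rat share its handling, time of collection and genotype, and the relation of Arrdc2 to these was not tested.

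**Figure D3:**
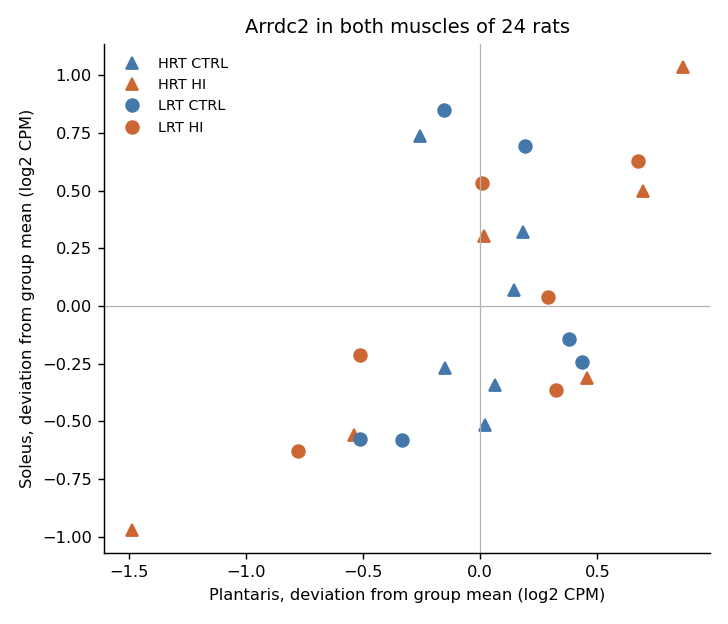
Deviation of log2 CPM of Arrdc2 from the group mean in plantaris (horizontal) and soleus (vertical), 1 point for each of 24 rats. Circles are LRT and triangles HRT rats, blue CTRL and orange HI. The cast HRT rats at the lower left and upper right are the 2 whose removal lowers r from 0.59 to 0.40.

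Arrdc3 (ENSRNOG00000045649), an alpha-arrestin that binds beta-adrenergic receptors, was the only other family member with a paired identifier. Identifiers were paired only through the study's tables of changed genes, so Arrdc3 was chosen for change in these samples. Arrdc1, Arrdc4, Arrdc5 and Txnip were not analysed here. Without a cast a difference between the muscles was not detected for Arrdc3 in LRT rats, at 50.9 ± 4.09 CPM in plantaris and 43.8 ± 4.99 CPM in soleus (log2 difference -0.24, 95% interval -0.79 to 0.31, adjusted p = 0.55, edgeR). In HRT rats the levels were 47.9 ± 16.9 and 33.4 ± 7.53 CPM, as a description. With a cast, Arrdc3 reached 198 ± 77.1 CPM in LRT plantaris and 145 ± 82.9 CPM in HRT plantaris, and 62.1 ± 16.5 and 66.1 ± 21.7 CPM in LRT and HRT soleus (SD, n = 6). In LRT plantaris the 6 HI rats (82.9 to 292 CPM) lay above all CTRL rats (45.7 to 56.2 CPM), without overlap as in 4.69% of all genes.

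**Figure D4:**
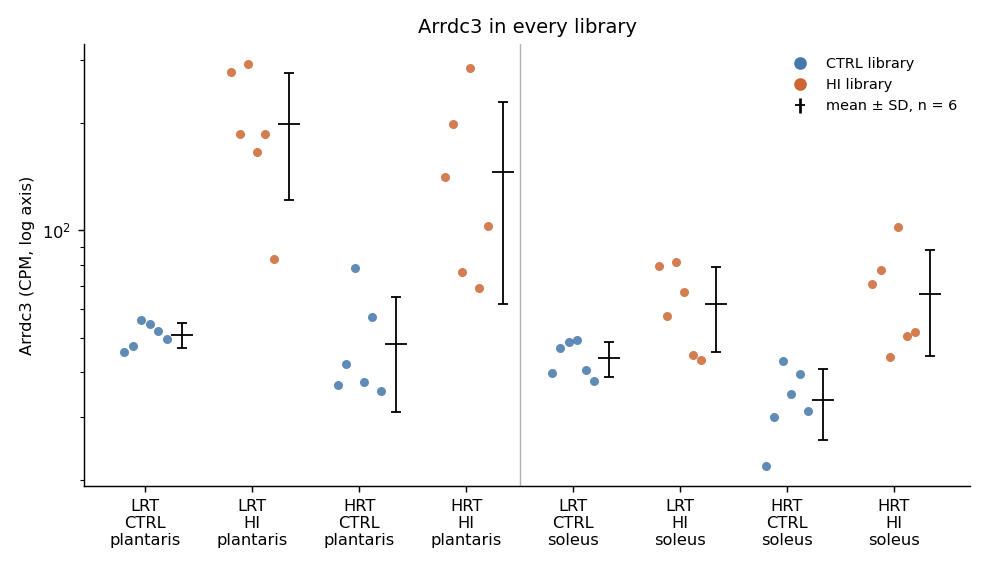
Arrdc3 in CPM (vertical log axis) in every library of the 8 groups, with CTRL in blue, HI in orange and mean ± SD of 6 rats in black. The cast plantaris groups stand highest, at 198 CPM in LRT and 145 CPM in HRT.

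Arrdc3 rose with the cast in plantaris of both lines, by 1.97 log2 in LRT (SE 0.27, adjusted p = 3.6e-06, edgeR) and 1.61 in HRT (SE 0.27, adjusted p = 0.00034, edgeR). In LRT soleus its log2 fold change of 0.49 did not pass (SE 0.27, adjusted p = 0.23, edgeR). In HRT soleus it was 0.96, as a description. There all 6 HI rats (44.3 to 102 CPM) lay above all 6 CTRL rats (21.9 to 43.2 CPM), as in 2.25% of all genes. The response in LRT soleus was smaller than in LRT plantaris by -1.48 log2 (SE 0.38, adjusted p = 0.034, edgeR), a call that was lost when any of 10 of the 24 libraries was left out. This fit has no term for the rat, and the call stayed with the rat as a block in limma-voom. For Arrdc2 the same interaction had the opposite sign, at 1.00, and did not pass. In LRT, then, the alpha-arrestin that passed the test was Arrdc3 in plantaris and Arrdc2 in soleus, and in HRT plantaris both passed.

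The change of the Arrdc2 to Arrdc3 ratio within a library was compared directly, a comparison chosen after the values had been seen. With the cast this log2 ratio fell by 1.47 in LRT plantaris (exact permutation p = 0.0087, adjusted over 3 comparisons p = 0.026), a call that was lost in 8 of 12 cases when a single library was left out (adjusted p up to 0.052). In LRT soleus it was higher by 0.93 and missed the threshold after adjustment (exact permutation p = 0.041, adjusted p = 0.062). In HRT plantaris its change was -0.08 (exact permutation p = 0.87). Across the 48 libraries the 2 genes had r = 0.63, and after removal of the group means r = 0.001.

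Genes were ranked by the Pearson r of their log2 CPM with that of Arrdc2 over all 48 libraries, as a description. Over 16959 genes r ran from -0.92 to 0.92, with 7 genes above 0.9 and 285 above 0.8. Among the 1148 other genes with a symbol the 6 highest were Chac1, which degrades glutathione (0.91), Gpcpd1, which splits glycerophosphocholine (0.91), Slc43a1, a transporter of large neutral amino acids (0.90), Pfkfb3, which makes an activator of glycolysis (0.90), Cd24, a surface glycoprotein (0.89), and Rabep2, an effector of endosomal Rab proteins (0.89). The 3 lowest were Rab23, a small GTPase (-0.92), Slc4a3, an anion exchanger (-0.89), and Myh10, a nonmuscle myosin heavy chain (-0.89). Without a symbol, ENSRNOG00000005228 (0.92) and ENSRNOG00000012597 (0.91) were as high and ENSRNOG00000020497 (-0.91) and ENSRNOG00000011307 (-0.91) as low. The points share the library, its depth and above all the muscle, which separates both Arrdc2 and these genes.

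**Figure D5:**
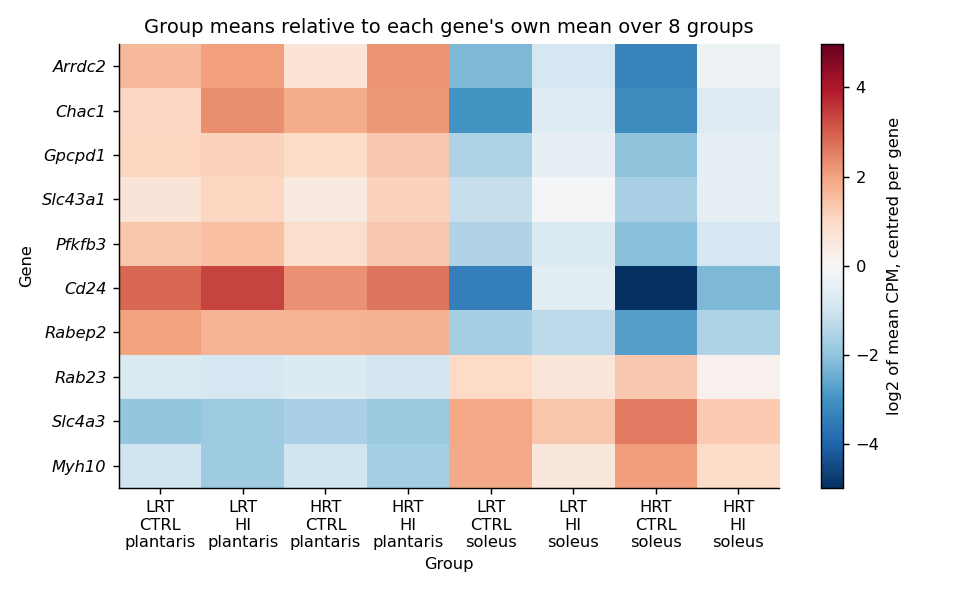
Group means of Arrdc2, the 6 genes most like it and the 3 least like it, as log2 of mean CPM minus the mean over the 8 groups of the same gene (colour scale, red above and blue below). The upper 7 genes are highest in plantaris columns and lowest in HRT CTRL soleus, and the lower 3 are highest in HRT CTRL soleus.

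The responses of these genes to the cast and their differences between muscles are a description too, since they were picked on the same libraries. The calls below are thus no support for a likeness to Arrdc2. In LRT soleus, where Arrdc2 rose by 1.40, Cd24 rose by 2.75 (SE 0.45, adjusted p = 0.00014), Chac1 by 2.35 (SE 0.40, adjusted p = 0.00017), Gpcpd1 by 1.10 (SE 0.24, adjusted p = 0.0024) and Slc43a1 by 1.08 (SE 0.22, adjusted p = 0.0010, all edgeR), 4 of the 6 where 18.3% of the genes with a symbol, from which they were picked, rose. The log2 fold changes of Pfkfb3 (0.82) and Rabep2 (0.38) did not pass there, though Pfkfb3 passed in 4 of 12 cases when a single library was left out. In HRT plantaris, where Arrdc2 rose by 1.55, only Slc43a1 of the 6 passed (0.74, SE 0.21, adjusted p = 0.020, edgeR; 15.7% of the genes with a symbol rose), a call lost without either of 2 libraries, and in LRT plantaris only Chac1 (1.27, SE 0.34, adjusted p = 0.0047, edgeR; 29.6% of the genes with a symbol rose). In soleus against plantaris of LRT CTRL the 6 were lower by log2 differences of -6.33 (Cd24) to -1.81 (Slc43a1), around the -3.80 of Arrdc2. A high r over libraries of both muscles picks genes that differ between them, so no call is read from these differences. Of the 3 least alike, Myh10 fell in LRT soleus (-1.30, SE 0.28, adjusted p = 0.0020, edgeR) and in LRT plantaris (-0.80, SE 0.28, adjusted p = 0.030, edgeR), the latter a call lost without any of 6 of 12 libraries, and its -0.78 in HRT plantaris did not pass. Rab23 and Slc4a3 passed in none of these 3 comparisons, with values between -0.51 and 0.05. Without LRT HI replicate 5, however, Rab23 in LRT soleus was -0.67 and passed (adjusted p = 0.00043, edgeR). When a single library was left out, Slc43a1 in LRT plantaris passed in 2 of 12 cases and Myh10 in HRT plantaris in 1 of 12.

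When the group means were removed, r over 16959 genes ran from -0.58 to 0.69, and 20 genes without a symbol lay above the highest gene with one. Over the 48 deviations the 5 highest with a symbol, at ranks 21 to 61 of all genes, were Kctd15 (r = 0.50), Flvcr1, a heme and choline transporter (0.48), LOC103694873 (0.48), Il6r, the interleukin 6 receptor (0.47), and Gabrr1, a GABA receptor subunit (0.45). By Spearman rho 3 of these 5 stayed among the 5 highest, and Kctd15, with a rho of 0.34, fell to rank 345 of all genes and rank 21 of those with a symbol. None of the 6 genes above was among them, and the r of the deviations was 0.20 for Chac1, 0.03 for Gpcpd1 and -0.18 for Cd24. Il6r rose with the cast in LRT soleus (1.03, SE 0.23, adjusted p = 0.0022, edgeR), LRT plantaris (0.81, SE 0.22, adjusted p = 0.0055, edgeR) and HRT plantaris (0.83, SE 0.22, adjusted p = 0.015, edgeR), with the LRT plantaris call lost without 1 library. Kctd15 fell in the same 3 comparisons, by 0.73 (adjusted p = 0.031), 1.01 (adjusted p = 0.0012) and 0.73 log2 (adjusted p = 0.036, edgeR), and its calls in LRT soleus and HRT plantaris were lost without any of 7 of 12 libraries. Gabrr1 rose in LRT soleus (1.78, SE 0.46, adjusted p = 0.0080, edgeR), from 0.323 ± 0.162 to 1.10 ± 0.791 CPM, and fell in LRT plantaris (-1.78, SE 0.38, adjusted p = 0.00045, edgeR) and HRT plantaris (-1.62, SE 0.37, adjusted p = 0.0050, edgeR), where Arrdc2 rose. Flvcr1 and LOC103694873 did not pass in any of the 3, with values between -0.23 and 0.53.

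Lists of genes related to Arrdc2 by its known regulation or partners were counted beside it. Their members have an identifier only where the tables of changed genes of the study give one, and so were chosen for change in these samples. Of the 1149 genes with an identifier 29.6% rose and 38.6% fell in LRT plantaris, 15.7% and 21.8% in HRT plantaris, and 18.3% and 18.6% in LRT soleus, against which the counts are to be read. Of 20 partners and clients of arrestins 1 had an identifier, the glucose transporter Slc2a4, which fell in LRT plantaris (-0.99, SE 0.24, adjusted p = 0.0021, edgeR) and did not pass in HRT plantaris (-0.47) or LRT soleus (-0.13).

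Of 25 glucocorticoid-responsive genes 8 had an identifier. Fkbp5, Per1, Klf15, Tsc22d3, Sgk1 and Zbtb16 were among those without one. In LRT plantaris 6 rose and 0 fell, in HRT plantaris 7 and 0, and in LRT soleus, where Arrdc2 rose, 2 and 1. The median log2 fold changes were 1.88, 1.37 and 0.50, beside -0.37, -0.26 and -0.15 for the genes with an identifier and 0.01, 0.02 and 0.01 for all genes. The metallothioneins Mt1 and Mt2A, which bind zinc, were the 2 that rose in LRT soleus (2.29 and 1.86). The 1 that fell there was Dusp1, from 83.9 ± 14.7 to 41.7 ± 11.4 CPM. The Mt2A value rests on 1 cast library, at 18.8 CPM beside a group median of 2.88 CPM, without which it was 0.97 and did not pass (adjusted p = 0.079, edgeR). The muscle ubiquitin ligases Fbxo32 and Trim63 rose in LRT plantaris (2.51 and 2.60) and HRT plantaris (1.58 and 1.62), while in LRT soleus their values of 0.74 and 0.47 did not pass. In HRT plantaris 1 cast library held 1843 CPM of Trim63 beside a group median of 359.9 CPM, and without it the value was 0.92 and did not pass (adjusted p = 0.052, edgeR). Arrdc2 passed in LRT soleus and not in LRT plantaris, and its interaction of muscle and treatment did not pass. Mt1, Mt2A, Fbxo32 and Trim63 were named for a small p in LRT soleus or plantaris, so their calls there are no comparison with Arrdc2.

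Of 23 genes of insulin and FoxO signalling 17 had an identifier. Among these, Foxo1, Fbxo32 and Trim63 are in the glucocorticoid list too, and Gadd45a in the denervation list below. The counts of these lists are thus not independent. In LRT plantaris 15 rose and 1 fell, in HRT plantaris 14 and 1, and in LRT soleus 7 and 2. Their median log2 fold changes were 1.5, 0.91 and 0.70. Fbxo31, a ubiquitin ligase subunit, rose in all 3 comparisons (1.60, 0.90 and 0.70), as did Map1lc3b, a component of autophagosomes (1.26, 0.78 and 0.71). Arrdc2 passed in HRT plantaris and LRT soleus and not in LRT plantaris.

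Of 19 genes of activity and load 17 had an identifier. In LRT plantaris 6 rose and 3 fell, in HRT plantaris 3 and 1, and in LRT soleus 0 and 6. Their median log2 fold changes were 0.05, -0.44 and -1.05. The 4 members named by the smallest p are not among the 6 that fell in LRT soleus. Fosb, a subunit of the AP-1 factor, rose in LRT plantaris (4.93) and HRT plantaris (3.92), and its 1.64 in LRT soleus did not pass in the reported fit but passed under 2 of 9 alternatives and in 2 of 12 cases when a single library was left out, with 2.38 without LRT CTRL replicate 1 (adjusted p = 0.017, edgeR). Junb, another AP-1 subunit, rose in LRT plantaris (2.03) and, by a call lost without any of 10 of 12 libraries, in HRT plantaris (1.03), with 0.32 in LRT soleus, and Maff rose in LRT plantaris (2.16) with 0.82 and -0.43 in the other comparisons. Ostn, a secreted peptide of muscle, fell in LRT plantaris (-2.93) and HRT plantaris (-1.87), the latter a call that 2 of 9 alternatives lost. In LRT plantaris its ratio of mean CPM, cast to uncast, went from 0.145 to 0.0889 without LRT HI replicate 6.

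Of 13 genes that respond to denervation 8 had an identifier. In LRT plantaris 7 rose and 1 fell, in HRT plantaris 4 and 1, and in LRT soleus 3 and 1. The 4 in HRT plantaris ran from 2 to 7 over the alternatives. Gadd45a and Hdac4, a stress gene and a histone deacetylase, rose in LRT plantaris (3.29 and 2.83), HRT plantaris (2.07 and 2.29) and LRT soleus (1.96 and 2.44). The Gadd45a value in HRT plantaris rests on the cast library that was highest for Trim63, at 82.2 CPM beside a group median of 17.5 CPM, and without it was 1.37 and did not pass (adjusted p = 0.052, edgeR). Ampd3, an AMP deaminase, rose in LRT plantaris (4.76) and HRT plantaris (2.82), with 0.96 in LRT soleus. In HRT plantaris its medians were 15.9 CPM without and 23.1 CPM with a cast, with that library at 469 CPM, without which the value was 1.55 (adjusted p = 0.080, edgeR), and 3 of 10 alternatives lost the call. Without the same library Arrdc2 stood at 1.38 in HRT plantaris and passed (adjusted p = 0.0096, edgeR). Myog, a myogenic factor, rose in LRT plantaris (2.62) with 0.01 in LRT soleus, and its 1.26 in HRT plantaris did not pass in the reported fit but passed under 4 of 10 alternatives (0.71 to 1.46), and was 0.43 without that library.

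Of 16 clock genes 8 had an identifier, and 2 rose and 2 fell in LRT plantaris, 4 and 1 in HRT plantaris, and 3 and 2 in LRT soleus. Tef, a clock output factor, rose in all 3 comparisons (0.48, 0.84 and 1.20, the first a call lost without any of 7 of 12 libraries), and Npas2, an activator of the clock, fell in all 3 (-1.53, -1.70 and -1.52). Per3, a clock repressor, rose in LRT soleus (0.75, a call lost without 1 library), and its 0.31 and 0.58 in LRT and HRT plantaris did not pass. Bhlhe41, another repressor, fell in LRT plantaris (-1.24), with 0.05 in HRT plantaris and 0.58 in LRT soleus. The hour of collection for each rat is not given in the sources used here, and its part in Arrdc2 was not tested.

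Genes of fibre type and of other cells were counted because Arrdc2 differed widely between the muscles. Of 13 fast fibre genes 8 had an identifier, and in LRT soleus 1 rose, Pvalb, the parvalbumin of fast fibres (3.23, from 1.5 ± 1.25 to 14.2 ± 15.8 CPM, and 2.54 without its highest library), and 0 fell, with a median of -0.10. In LRT plantaris 0 rose and 5 fell, among them Casq1 (-1.49), Eno3 (-1.28) and Pgam2 (-1.67), a calcium store protein and 2 enzymes of glycolysis. In HRT plantaris, where Arrdc2 rose, 0 rose and 2 fell. Over the alternatives the risen count ran from 0 to 1, with 1 under 8 of 10, and the fallen count from 0 to 3. Of 9 slow fibre genes Casq2 alone had an identifier, and it fell in LRT plantaris (-1.42), while its -1.04 in HRT plantaris and -1.01 in LRT soleus did not pass in the reported fit but passed under 4 and 7 of 10 alternatives. Of 19 markers of other cells 4 had an identifier, the collagens Col1a1 and Col3a1 of fibroblasts and Hbb and Alas2 of erythroid cells. None of the 4 passed in LRT soleus, Col1a1 fell in HRT plantaris (-1.61), and Col1a1 and Col3a1 fell in LRT plantaris (-1.36 and -1.25). These calls were lost without any of 6, 7 and 1 of 12 libraries. Col3a1 in HRT plantaris did not pass (-0.87, adjusted p = 0.15, edgeR). It was -1.53 without HRT HI replicate 6, and 1 of 12 removals gained the call. In HRT plantaris the erythroid genes had values of 1.62 (Alas2, adjusted p = 0.063, edgeR) and 1.17 (Hbb, adjusted p = 0.21, edgeR), which did not pass in the reported fit. Alas2 passed under 2 of 10 alternatives and in 2 of 12 cases when a single library was left out. Without HRT HI replicate 5 the values of Alas2 and Hbb were 0.70 and 0.11. Their part in the values of Arrdc2 was not tested.

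In HRT soleus, the comparison that chose the gene, the counts of risen and fallen members are a description. They were 3 and 0 for the glucocorticoid list, 4 and 2 for insulin and FoxO, 1 and 5 for activity and load, 2 and 1 for denervation, 6 and 2 for the clock, 0 and 0 for fast fibres and 2 and 1 for other cells, where Hbb ran at 110 ± 56.5 CPM without and 696 ± 1095 CPM with a cast. Over the alternatives the risen fast fibre genes ran from 0 to 2, the fallen genes of other cells from 0 to 1 and the fallen genes of activity and load from 3 to 6. Of the genes with an identifier 15.7% rose and 20.8% fell there.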

How the data were processed

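RNA sequencing of plantaris and soleus was analysed in 48 libraries of 24 rats, grouped by the deposited labels, with no library left out. The authors quantified transcripts with Salmon 0.9.1 on Ensembl transcripts of Rnor_6.0, coding and non-coding, per the paper, and summed them per gene, and the values they deposited are estimated counts, scaled for length and not normalized between libraries. Of these values 66.0% were not whole, and they were rounded before the fits. The labels name a TruSeq RNA kit and the methods a stranded total RNA kit, so that whether strand was used is not settled.

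Fits were made in R 4.3.3 with edgeR 4.0.16 (filterByExpr, TMM, quasi-likelihood test, 8 groups and RIN, all 48 libraries, Benjamini-Hochberg over 16960 genes, threshold 0.05). The edgeR fits held no term for the rat, so the 2 muscles of a rat were treated as independent. CPM use TMM-scaled totals, and log2 CPM a prior count of 2. Exact 2-sided permutation tests of log2 CPM compared 6 with 6 rats, and 100000 resamples were drawn for the correlation over rats, in Python 3.11.15 (matplotlib 3.10.9, pandas 2.3.3, scipy 1.17.1, numpy 2.4.6). The ratio of Arrdc2 to Arrdc3 used 0.5 added counts. DESeq2 1.42.0 and limma 3.58.1 (voom) were alternatives, beside other scalings, filters and prior counts, no RIN, each muscle alone, replicate or rat blocks, and each library left out. The fits were tested on simulated data with known changes.

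The members and lists were chosen with earlier results of these data known. The named genes are Arrdc2, the other alpha-arrestin with an identifier, the 6 highest and 3 lowest in r with Arrdc2, the 5 highest in r of the deviations, at most 4 unnamed genes, and up to 4 of each list with the smallest p in LRT soleus or plantaris. The list members Atp2a1, Foxo1 and Dusp1 are mentioned beside these. Symbols were paired with 1149 identifiers (3.59%) through the study's tables of changed genes, whose own fold changes were not used. Promoters were matched by symbol to RefSeq (2 of 2 alpha-arrestins with an identifier). Plantaris and soleus with the same number were taken as 1 rat, since both muscles came from the same rats. As a check, deviations from the group means were correlated between muscles. Libraries of the same number had a mean r of 0.32 (LRT, cast), 0.28 (HRT, cast), 0.21 (LRT, no cast) and 0.096 (HRT, no cast), and matched their own number best in 6, 6, 6 and 4 of 6 rats. The correlation over 24 rats was planned as a test and is given without a p, because 12 of these rats hold HRT soleus libraries. HI and CTRL rats with the same number are different animals and were not paired in the reported fits. The alternative with the replicate number as a block does join them, though their libraries were unlike (mean r between -0.045 and 0.0027).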

Additional observations from a re-analysis of the deposited data

Results flagged for a closer look

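Arrdc3, the other alpha-arrestin analysed, is given here because its response to the cast differed between the muscles of LRT rats by the test of the difference itself. Its identifier came from the study's tables of changed genes, so Arrdc3 was chosen for change in these samples. The log2 fold change in soleus was smaller than in plantaris by -1.48 (SE 0.38, adjusted p = 0.034, edgeR), in a fit with no term for the rat. Leaving out any of 10 of the 24 libraries lost this call, and over all 24 the value lay between -1.59 and -1.32 (adjusted p 0.010 to 0.10, edgeR). The same interaction for Arrdc2, 1.00, did not pass.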

How the results depend on the processing

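The direction and the side of the threshold held for each edgeR result of Arrdc2 under each of the alternatives run, with log2 fold changes between 1.37 and 1.71 in HRT plantaris, 1.36 and 1.54 in LRT soleus and 0.36 and 0.61 in LRT plantaris. Leaving out 1 library gave 1.38 to 1.72, 1.27 to 1.63 and 0.22 to 0.52. With the replicate number as a block they were 1.44, 1.36 and 0.40, and with the rat as a block 1.37, 1.42 and 0.36, and neither block changed another call of Arrdc2. The replicate number joins different rats across lines and treatments, so that block is no test of a pairing. The correlation of plantaris and soleus over rats was 0.59 over all 24 and 0.46 over the 12 LRT rats. With library totals alone the permutation test of LRT plantaris passed (0.61). The permutation difference of LRT and HRT in HI plantaris, far from the threshold, turned sign when a single library was left out (range -0.39 to 0.085). The change of the ratio to Arrdc3 lay between -1.76 and -1.20 in LRT plantaris, 0.79 and 1.14 in LRT soleus and -0.37 and 0.25 in HRT plantaris when 1 library was left out. In LRT plantaris 8 of 12 such removals missed the threshold and in LRT soleus 2 passed it (1.12 without LRT CTRL replicate 5 and 1.14 without LRT HI replicate 1). Under the alternatives, some values near 0 of Arrdc3 and the named list members turned sign. With library totals these were Arrdc3 in LRT against HRT CTRL plantaris (-0.013), and Slc2a4 (0.015) and Pgam2 (0.082) in LRT soleus. The others were Myog in LRT soleus (-0.0025, each muscle alone) and Bhlhe41 in HRT plantaris (-0.14 with limma-voom and -0.12 with the rat block). Leaving out 1 library turned other values near 0, such as Gpcpd1 in LRT plantaris (0.075 to -0.080). Among the named list members, calls that 1 or more alternatives lost were Col1a1 and Tef in LRT plantaris. In HRT plantaris they were Col1a1, Junb, Ostn, Ampd3, Eno3 and Pgam2. The count of risen denervation genes there also ran from 2 to 7. Those of risen and fallen fast fibre genes there ran from 0 to 1 and 0 to 3. The fallen genes of activity and load in HRT plantaris ran from 0 to 2 and those of other cells in LRT plantaris from 1 to 2. In HRT plantaris the named list members that gained a call were Casq2 (4 of 10 alternatives), Myog (4), Per3 (2), Alas2 (2) and Casq1 (1). In LRT soleus they were Casq2 (7 of 10), Fosb (2 of 9) and Casq1 (1), and in LRT plantaris Pvalb (1 of 9). Unnamed members changed calls too. The risen insulin and FoxO genes ran from 12 to 14 in HRT plantaris and from 6 to 8 in LRT soleus. Each library was also left out for the 46 other named genes, an analysis chosen after seeing the data, and 1 or more removals lost 4 of 20 calls in LRT soleus, 5 of 29 in LRT plantaris and 9 of 22 in HRT plantaris, while 7, 1 and 6 values gained one. Called values whose fitted fold moved by over 1.5 times were Mt2A and Pvalb in LRT soleus (without LRT HI replicate 5), Col1a1 in LRT plantaris (-0.71 without LRT CTRL replicate 2), and Trim63, Ampd3 and Gadd45a in HRT plantaris (without HRT HI replicate 4). For Ostn in LRT plantaris the ratio of mean CPM alone did, from 0.145 to 0.0889 without LRT HI replicate 6. The causes were not tested. Depth was thin for Arrdc2 in soleus CTRL (36 to 190 estimated counts) and thinner for some other named genes, with 2.0 as the lowest count of Gabrr1 and 8.0 as that of Mt1.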
